A study of Mus musculus with 9 samples.

Results

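The 10 genes described here, Gfra1, Ret, Etv5, Bcl6b, Zbtb16, Id4, Lhx1, Nanos2, Nanos3 and Eomes, are known for the self-renewal of spermatogonial stem cells. They were taken by gene symbol from the 32285 genes of the deposited count matrices, and all 10 were found. The data are single cell RNA-seq of whole testis from 9 C57BL/6 mice at postnatal day 24, with 1 library per mouse. The mice fall into 3 groups, of 4 (control), 2 (NELF-B cKO) and 3 (TDP-43 cKO). Each conditional knockout (cKO) mouse carried 1 floxed and 1 null allele of the targeted gene, Nelfb in the NELF-B cKO and Tardbp in the TDP-43 cKO, and the Stra8-iCre transgene, whose promoter drives Cre recombinase in spermatogonia from the first postnatal week. The cKO mice were of a pure C57BL/6 J background, and the controls were littermates or non-littermates, which the study calls wild type. The transgene is known to act in germ cells, so Sertoli cells and the other somatic cells of a cKO mouse carried 1 floxed and 1 null allele.

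Spermatogonia (SG) are the mitotic germ cells of the testis. A small undifferentiated fraction of them includes the stem cells, which either renew themselves or give rise to differentiating SG, spermatocytes (SC) in meiosis and round spermatids (RS). Sertoli and peritubular myoid cells secrete the growth factor GDNF, which binds the surface co-receptor GFRA1 on undifferentiated SG and thereby activates the receptor tyrosine kinase RET. ETV5, BCL6B, LHX1, EOMES and ID4 are nuclear factors, several of them induced by GDNF in cultured stem cells. ZBTB16, also known as PLZF, is a zinc finger repressor of undifferentiated SG, and NANOS2 and NANOS3 are RNA-binding proteins, NANOS2 of the most primitive SG and NANOS3 of the wider undifferentiated pool.

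In an annotation of GRCm38, the assembly that the count tables use, the 10 genes, all protein coding, lay on 8 chromosomes. The co-receptor gene Gfra1 spans chr19:58235604-58455909 and the receptor gene Ret chr6:118151745-118197718, both on the minus strand. Of the nuclear factors, Etv5 lies at chr16:22381309-22439719, Bcl6b at chr11:70224128-70229798, Lhx1 at chr11:84518284-84525535 and Zbtb16 at chr9:48654297-48836222, all on the minus strand, while Eomes at chr9:118478212-118486132 and Id4 at chr13:48261228-48266026 are on the plus strand. Nanos2 lies at chr7:18987400-18988962 on the plus strand and Nanos3 at chr8:84173731-84185217 on the minus strand. Promoter sequence was found in RefSeq (GRCm38.p6) for 7 of the 10 genes, as windows of 300 bases around the start of transcription that RefSeq lists. That start can differ from the gene's end in the annotation used for the positions above: the Gfra1 window lies wholly inside the gene as listed there, the Id4 window ends before it, and the Nanos2 and Lhx1 windows cross its start. Those of 4 genes are shown because the genes contrast in the levels given below: Gfra1, Lhx1 and Nanos2 had their highest level in undifferentiated SG, while Id4 was higher in SC. Capitals mark the letters CCAAT or ATTGG (the CCAAT box on either strand) and TATAAA or TTTATA (the TATA box on either strand). The windows are chr19:58455349-58455648 on the minus strand for Gfra1, chr11:84525485-84525784 on the minus strand for Lhx1, chr7:18987274-18987573 on the plus strand for Nanos2 and chr13:48260866-48261165 on the plus strand for Id4.
Gfra1: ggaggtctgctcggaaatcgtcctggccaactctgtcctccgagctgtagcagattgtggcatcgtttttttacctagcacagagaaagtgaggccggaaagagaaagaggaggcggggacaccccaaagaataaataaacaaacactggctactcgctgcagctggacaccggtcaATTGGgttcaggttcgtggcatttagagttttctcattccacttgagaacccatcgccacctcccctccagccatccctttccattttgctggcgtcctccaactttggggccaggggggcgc
Lhx1: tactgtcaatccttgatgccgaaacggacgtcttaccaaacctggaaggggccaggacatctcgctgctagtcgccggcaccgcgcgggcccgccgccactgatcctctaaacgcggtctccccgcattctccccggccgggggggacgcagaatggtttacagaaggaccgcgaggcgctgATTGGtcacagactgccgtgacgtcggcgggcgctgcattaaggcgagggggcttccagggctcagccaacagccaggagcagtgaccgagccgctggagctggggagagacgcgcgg
Nanos2: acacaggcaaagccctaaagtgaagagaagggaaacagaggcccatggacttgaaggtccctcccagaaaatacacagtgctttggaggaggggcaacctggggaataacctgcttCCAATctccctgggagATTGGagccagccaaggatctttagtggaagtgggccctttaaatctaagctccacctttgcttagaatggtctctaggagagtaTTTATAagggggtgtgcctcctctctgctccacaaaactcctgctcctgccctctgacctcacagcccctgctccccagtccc
Id4: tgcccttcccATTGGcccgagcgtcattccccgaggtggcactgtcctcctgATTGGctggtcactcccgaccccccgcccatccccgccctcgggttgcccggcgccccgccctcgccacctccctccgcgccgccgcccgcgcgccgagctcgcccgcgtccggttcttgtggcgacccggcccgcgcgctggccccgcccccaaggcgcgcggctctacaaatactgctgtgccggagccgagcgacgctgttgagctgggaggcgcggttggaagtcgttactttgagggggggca

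The 4 windows differed in base composition. The Id4 window was 73.3% G or C with 39 CG pairs and the Lhx1 window 65.7% with 31 pairs, while the Gfra1 window had 54.0% and 12 pairs. The Nanos2 window, at 53.0%, held 0 CG pairs, against a median of 52.7% and 7 pairs over 32851 RefSeq promoter windows. A CCAAT box was found in 7 of the 8 windows of the 7 genes and in 37.4% of all windows. It lay 73 bases before the RefSeq start of Gfra1, 68 bases before that of Lhx1, 240 and 198 bases before that of Id4, and 134 and 118 bases before that of Nanos2. A TATA box was found only in Nanos2 among the 8 windows, on the reverse strand and 33 bases before the start, and in 13.6% of all windows. The E-box CACGTG, in 7.15% of all windows, and the ETS-type motif CCGGAAG, in 8.86%, were in 0 of the 8.

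The libraries held 119203347 to 159407373 UMIs each, and 45132 cells passed the filter on genes and mitochondrial UMIs. These fell into 26 clusters, of which 20, with 26928 cells, were named from fixed markers that did not include the 10 genes. The 10 genes were also kept out of the genes used for clustering. SG were 6096 cells of 3 clusters, and a second clustering of SG alone gave 11 sub-clusters, of which 3 (1841 cells) were named undifferentiated from 5, 6 and 3 of 10 markers. All but 3 of these cells lay in 1 SG cluster, whose leading genes included the undifferentiated markers Glis3, Upp1, Egr4 and Tcl1. At resolution 1.2 a sub-cluster with Sult6b2 among its leading genes reached only 2 of the 10 markers and went unnamed. A cluster of 1227 cells led by Lhx8 and Stra8 stood between SG and SC and was left unnamed. Libraries stood apart in depth: the median UMI count of a cell was 1754 to 6369 in control mice, 5165 and 17312.5 in NELF-B cKO mice and 14117 to 19254 in TDP-43 cKO mice. A cluster of cells of few UMIs, 98.8% of them from control mouse 2, was left unnamed for that reason. From the cKO mice, any germ cell in which the deleted gene still had a UMI was dropped, after the study's own practice. This removed 2966 cells. Before that step, Nelfb in SG was 61.1 to 78.3 CPM (the gene's share of all UMIs of a cell type in 1 mouse, scaled to 1000000) in control mice and 5.39 and 6.12 CPM in those of the NELF-B cKO. Tardbp was 72.1 to 98.5 CPM in control and 33.5 to 39.6 CPM in TDP-43 cKO mice. Tardbp UMIs come from the 3′ end and the floxed exon lies upstream, so a UMI need not come from an intact allele. After it, undifferentiated SG were 437 cells in control, 236 in NELF-B cKO and 375 in TDP-43 cKO mice.

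In control mice, 7 of the 10 genes had their highest level in undifferentiated SG among 13 cell types, and Etv5, Bcl6b and Id4 did not. The levels are UMIs summed per mouse and cell type, in CPM, with the mean ± SD over 4 mice; the cell types are parts of the same libraries, so no test was made between them.

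Among the receptor genes, Gfra1 was 119 ± 28.3 CPM in undifferentiated SG (83.8 to 149 CPM, n = 4 mice), 6.18 times the next type. That type was RS, the haploid cells after meiosis, with 19.3 ± 5.65 CPM (14.3 to 27.2 CPM, 677 UMIs). The level in RS was above the 4.48 to 9.53 CPM found in free RNA of the same mice, which is the RNA of barcodes with at most 100 UMIs, and it did not overlap with the Stra8-led cluster's values or with those of undifferentiated SG. Ret was 58.4 ± 13.5 CPM in undifferentiated SG (45.7 to 76.7 CPM), 16.7 times its level in the Stra8-led cluster, which came next with 3.50 ± 0.278 CPM. Ret had 0 UMIs in preleptotene (pL) SC and in leptotene and zygotene (L/Z) SC, which allows up to 0.441 CPM and 0.141 CPM. In RS, where Gfra1 came second, Ret was at 0.0606 to 0.669 CPM from 11 UMIs, within the 0.251 to 1.60 CPM of free RNA or below it.

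Of the nuclear factors, Zbtb16 was 359 ± 36.3 CPM in undifferentiated SG (325 to 404 CPM). The Stra8-led cluster came next with 98.3 ± 5.99 CPM (90.9 to 105 CPM), then Leydig cells with 36.9 to 89.4 CPM and the other SG with 30.7 to 50.1 CPM. The steroid-producing Leydig cells overlapped with myoid cells (20.7 to 48.9 CPM), macrophages (15.3 to 63.1 CPM) and interstitial cells (18.1 to 38.7 CPM), all above the 5.01 to 13.8 CPM of free RNA. Lhx1 was 15.7 ± 7.70 CPM (9.15 to 26.7 CPM, 175 UMIs) in undifferentiated SG, 12.9 times RS, and Eomes was 4.26 ± 1.30 CPM (2.62 to 5.63 CPM, 43 UMIs), 5.26 times the Stra8-led cluster. Both are homeodomain or T-box factors also used in the early embryo, and both had few UMIs. Bcl6b was highest in endothelial cells, which line vessels, with 32.5 ± 8.11 CPM (24.8 to 43.9 CPM) from 32 UMIs. Undifferentiated SG came second with 6.75 ± 2.40 CPM (4.22 to 9.75 CPM, 74 UMIs), so that the 2 types did not overlap.

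Etv5, an ETS factor that Sertoli cells also need to keep the stem cell niche, was highest in Sertoli cells with 51.6 ± 8.39 CPM (43.4 to 59.7 CPM). Undifferentiated SG were 4th with 34.5 ± 6.16 CPM (29.9 to 42.9 CPM), after Leydig cells (mean 36.2 CPM) and macrophages (mean 35.7 CPM), and these neighbours in the order overlapped. With a mean over cells in place of summed UMIs, undifferentiated SG came first for Etv5, which made 8 of the 10 genes. Id4, an inhibitor of basic helix-loop-helix factors, was highest in pachytene and diplotene (P/D) SC with 125 ± 5.24 CPM (118 to 131 CPM), followed by L/Z SC with 102 ± 14.1 CPM (81.6 to 114 CPM) when myoid cells, with 49 UMIs, were set aside. Undifferentiated SG were 5th for Id4 with 43.9 ± 4.58 CPM (39.1 to 49.99 CPM). Free RNA held 81.7 to 88.1 CPM of Id4 in control mice, above the levels in undifferentiated SG and the 63.3 to 75.7 CPM seen in Sertoli cells, and below P/D SC. That value is the makeup of free RNA and not the amount it adds to a cell. In pL SC of the same mice, given below, Id4 was lower than in undifferentiated SG. The part of free RNA in these levels was not tested.

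Nanos2 was the scarcest of the RNA-binding proteins' transcripts, with 4.29 ± 2.80 CPM (2.39 to 8.45 CPM) in undifferentiated SG from 38 UMIs. It had 3 UMIs in Sertoli cells and 0 in 8 of the 13 cell types, RS among them, where 0 allows up to 0.0813 CPM. Nanos3 was 74.8 ± 4.5 CPM (69.7 to 80.3 CPM) in undifferentiated SG, and 8.93 CPM on average in the Stra8-led cluster. Myoid cells came between them with a mean of 16.4 CPM, which rests on 9 UMIs.

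**Figure D1:**
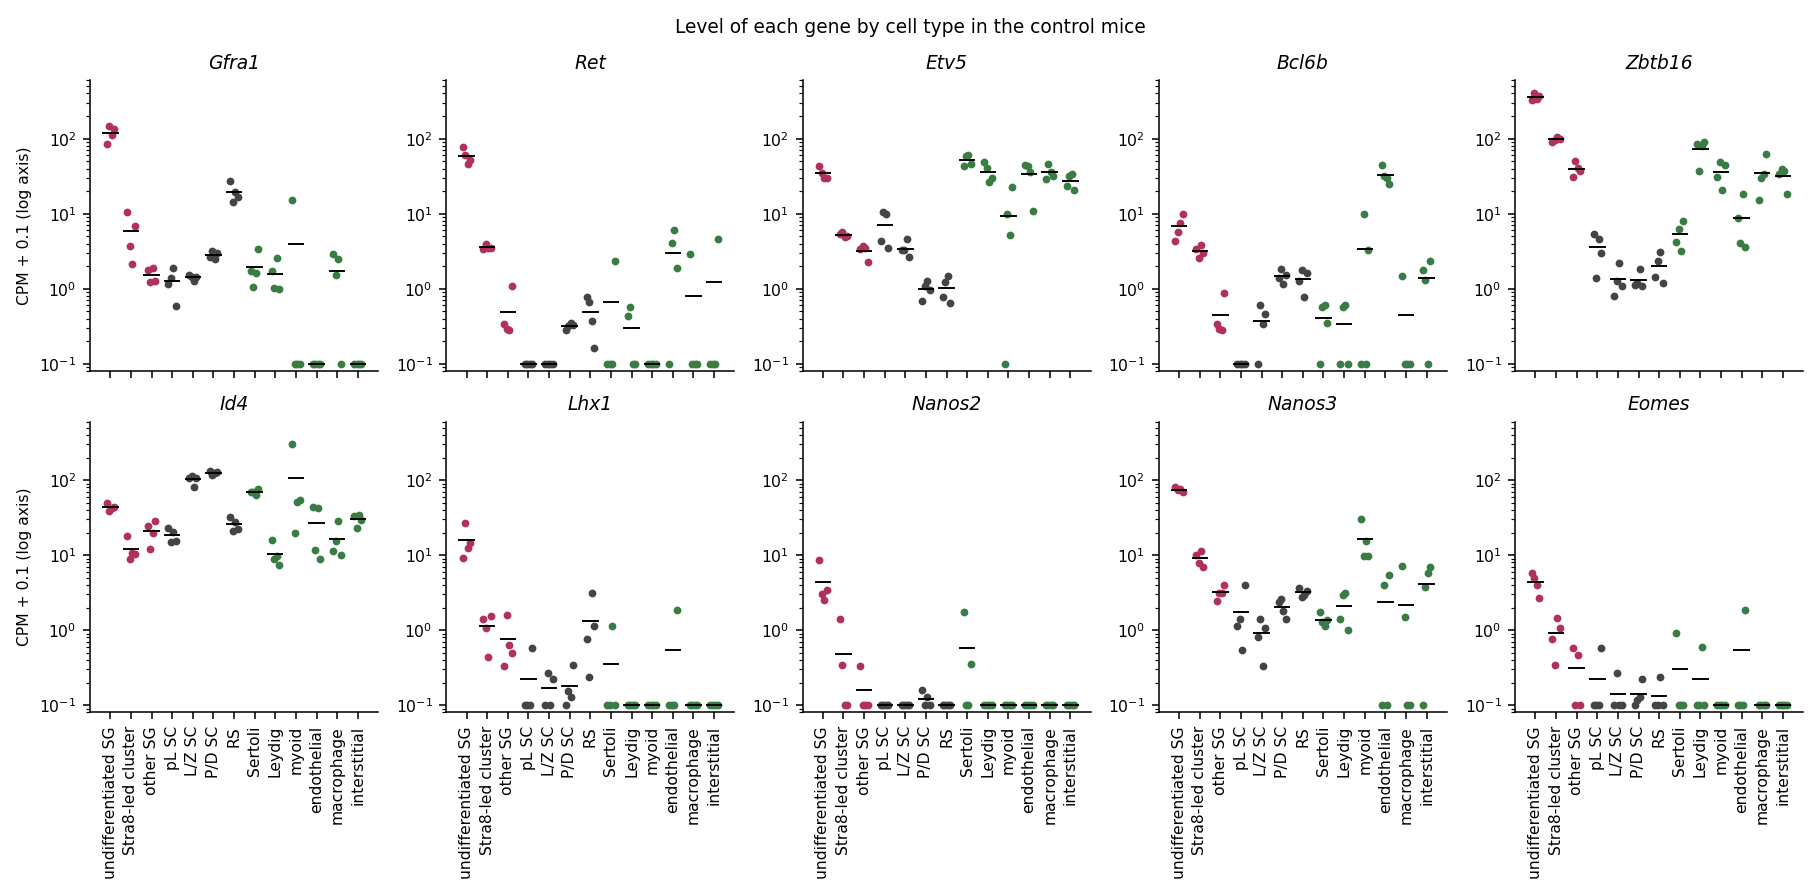
Level of each of the 10 genes in 13 cell types of the 4 control mice, in CPM with 0.1 added, on a log axis; each point is 1 mouse and each bar the mean, with SG classes in red, SC and RS in grey and somatic cells in green. Gfra1, Ret, Zbtb16, Lhx1, Nanos2, Nanos3 and Eomes peaked in undifferentiated SG, Bcl6b in endothelial cells, Etv5 in Sertoli cells and Id4 in P/D SC.

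The profile of other genes over the 13 cell types was compared with the mean profile of the 10, each scaled to equal spread. Among 10177 genes with at least 10 CPM in undifferentiated SG, Krt24 (r = 0.966), Gm7967 (r = 0.966), Nr2e1 (r = 0.959), Gm6329 (r = 0.954) and Gm36899 (r = 0.951) were the closest, by Pearson's r over the 13 types in control mice. Krt24 encodes a keratin and Nr2e1 an orphan nuclear receptor. The 10 genes themselves, each of which is part of that mean, ranged from 0.974 for Ret, 0.970 for Eomes, 0.967 for Nanos2 and 0.941 for Lhx1 to 0.340 for Etv5 and 0.053 for Id4. These r values describe cell types of the same libraries and carry no test.

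Undifferentiated SG were not uniform, and the 3 sub-clusters carried different parts of the set. The sub-cluster whose leading gene was Lhx1 (128 control cells) had the highest Gfra1, 238 to 425 CPM in control mice, against 41.9 to 105 CPM in the sub-cluster led by Sult6b2 and 22.5 to 36.8 CPM in that led by Onecut2. Etv5 ran the same way, with 65.5 to 88.9 CPM against 25.2 to 41.9 and 7.56 to 21.3 CPM, and so did Id4, with 73.4 to 82.9 CPM against 28.6 to 43.5 and 23.5 to 38.8 CPM. For these 3 genes the values of the Lhx1-led sub-cluster did not overlap with those of either of the others, but for Id4 they lay at or below the 81.7 to 88.1 CPM of free RNA. Eomes was 10.8 to 18.3 CPM in the Lhx1-led sub-cluster and at most 2.07 CPM elsewhere, and Lhx1 itself was 34.0 to 87.0 CPM against at most 4.09 CPM. Nanos3 ran the other way: it was 23.5 to 44.1 CPM in the Lhx1-led sub-cluster, 50.3 to 74.4 CPM in the Sult6b2-led and 90.7 to 116 CPM in the Onecut2-led sub-cluster. Zbtb16 was broad, with 288 to 398, 227 to 292 and 371 to 473 CPM. The sub-clusters were drawn from the same cells, so these are descriptions without a test.

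The same cells were also read 1 by 1, after each control cell was thinned to 10000 UMIs, which 409 of the 437 undifferentiated SG reached. A UMI of Gfra1 was found in 86.2% of the 116 thinned cells of the Lhx1-led sub-cluster, in 44.5% of all undifferentiated SG (59.0% before thinning), in 0.754% of the other SG (1.87% before thinning) and in 15.2% of RS (23.2% before thinning). The shares after thinning rest on 796 of 1394 other SG and on 698 of 1914 RS, whose median was 3753.5 UMIs. Zbtb16 was found in 92.4% of undifferentiated SG and 28.9% of the other SG, and Nanos3 in 53.1% and 3.14%. Nanos2 and Eomes were each found in 3.18% of undifferentiated SG, and Bcl6b in 5.62%. Of the 182 undifferentiated SG with a Gfra1 UMI, 51.1% also had Ret, against 29.1% of the 227 without one. For Etv5 the shares were 41.8% and 18.1% and for Lhx1 18.1% and 3.52%. Nanos3 was again opposite, with 41.8% of the cells with Gfra1 and 62.1% of those without. For Zbtb16 (92.9% and 92.1%) and Nanos2 (2.75% and 3.52%, 13 cells in all) the shares differed little. Of the 41 cells with a Lhx1 UMI, 80.5% had Gfra1 and 24.4% had Nanos3. Cells of 1 mouse share a library, so these shares describe the cells and were not tested.

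The study asked what the loss of NELF-B, a subunit of the complex that pauses RNA polymerase II, and of TDP-43, an RNA- and DNA-binding protein, does to gene expression in germ cells. In undifferentiated SG, 0 of the 10 genes passed the test in either cKO against control (edgeR quasi-likelihood test on UMIs summed per mouse, adjusted p under 0.05 over all genes tested). Over all 14747 genes, 0.0339% were called in NELF-B cKO and 0.00678% in TDP-43 cKO, so few genes of any kind were called. At an unadjusted p under 0.05 the count was 0 as well in both, and DESeq2 called 0. The p-values measure the spread between these mice only.

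Gfra1 in undifferentiated SG was 83.8, 149, 111 and 134 CPM in control mice, 177 and 136 CPM in NELF-B cKO mice and 115, 92.5 and 125 CPM in TDP-43 cKO mice. NELF-B cKO mouse 1 was above every control mouse, and both NELF-B cKO mice were above the 3 mice of the TDP-43 cKO, while each cKO overlapped with control. The fitted difference was 0.34 on the log2 scale (95% interval −0.08 to 0.75) for NELF-B cKO and −0.08 (−0.45 to 0.29) for TDP-43 cKO. Ret was 76.7, 59.7, 45.7 and 51.4 CPM in control, 68.7 and 77.1 CPM in NELF-B cKO and 61.9, 57.8 and 63.8 CPM in TDP-43 cKO mice. Each cKO overlapped with control, and both NELF-B cKO values lay above those of the TDP-43 cKO. Its difference was 0.34 (−0.03 to 0.72; adjusted p = 0.398 by edgeR) in NELF-B cKO and 0.14 (−0.19 to 0.48) in TDP-43 cKO. These intervals leave room for a change of Ret of up to 0.72 on the log2 scale, and the data do not show that the receptors were at the same level.

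Of the nuclear factors, Zbtb16 was 325, 404, 335 and 372 CPM in control, 501 and 368 CPM in NELF-B cKO and 360, 304 and 361 CPM in TDP-43 cKO mice. Its TDP-43 cKO difference had the narrowest interval of the set, −0.28 to 0.22 on the log2 scale around −0.03. Lhx1 was 9.15, 26.7, 12.2 and 14.6 CPM in control, 28.0 and 23.8 CPM in NELF-B cKO and 10.2, 8.17 and 13.8 CPM in TDP-43 cKO mice. Of the NELF-B cKO values 28.0 CPM lay above the control range and 23.8 CPM within it, and of the TDP-43 cKO values 8.17 CPM lay below it and the others within. The differences were 0.65 (−0.09 to 1.39, adjusted p = 0.415 by edgeR) and −0.54 (−1.24 to 0.16, adjusted p = 0.401), and that between the cKO was −1.19 (SE 0.36, adjusted p = 0.142). Bcl6b, a transcriptional repressor, was 4.22, 5.54, 7.47 and 9.75 CPM in control, 7.29 and 15.7 CPM in NELF-B cKO and 16.6, 8.17 and 7.82 CPM in TDP-43 cKO mice. Counts of 6 to 80 UMIs per mouse lay behind the values of Bcl6b, and the intervals ran from −0.14 to 1.72 and from −0.12 to 1.55.

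Etv5 was 42.9, 35.2, 29.9 and 29.99 CPM in control, 45.0 and 39.3 CPM in NELF-B cKO and 31.4, 31.3 and 30.02 CPM in TDP-43 cKO mice. Id4 was 49.99, 39.1, 42.1 and 44.2 CPM, 46.8 and 48.8 CPM, and 46.3, 41.5 and 40.7 CPM in the same order. For both genes each cKO overlapped with control and the NELF-B cKO mice lay above those of the TDP-43 cKO. Id4 in undifferentiated SG differed by 0.12 (−0.17 to 0.42) and 0.03 (−0.23 to 0.29) on the log2 scale. Nanos3 was 80.3, 73.1, 76.2 and 69.7 CPM in control, 57.1 and 71.6 CPM in NELF-B cKO and 76.2, 94.2 and 72.6 CPM in TDP-43 cKO mice. Its differences were −0.20 (−0.52 to 0.11) and 0.17 (−0.11 to 0.44). Nanos2, at 2.39 to 8.45, 2.43 and 3.93, and 2.81 to 8.17 CPM, and Eomes, at 2.62 to 5.63, 1.22 and 3.54, and 1.70 to 3.75 CPM, rested on 2 to 24 UMIs per mouse. At this depth their intervals were wide, from −1.61 to 1.10 for Nanos2 in NELF-B cKO, and a difference was not detectable in undifferentiated SG. In the Lhx1-led sub-cluster alone, Eomes was 10.8 to 18.3 CPM in control mice. It was 2.05 and 9.35 CPM there in NELF-B cKO and 3.47 to 10.5 CPM in TDP-43 cKO mice. Both cKO lay below control there without overlap, from 1 to 14 UMIs per mouse. With no cell left out, the TDP-43 cKO mice were at 4.20 to 12.5 CPM and overlapped with control. The NELF-B cKO mice, at 1.99 and 7.62 CPM, still did not. The share of all genes without overlap in that sub-cluster is not given. That sub-cluster was chosen after seeing the data and changed no call. In the Sult6b2-led and Onecut2-led sub-clusters each cKO overlapped with control for Eomes.

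**Figure D2:**
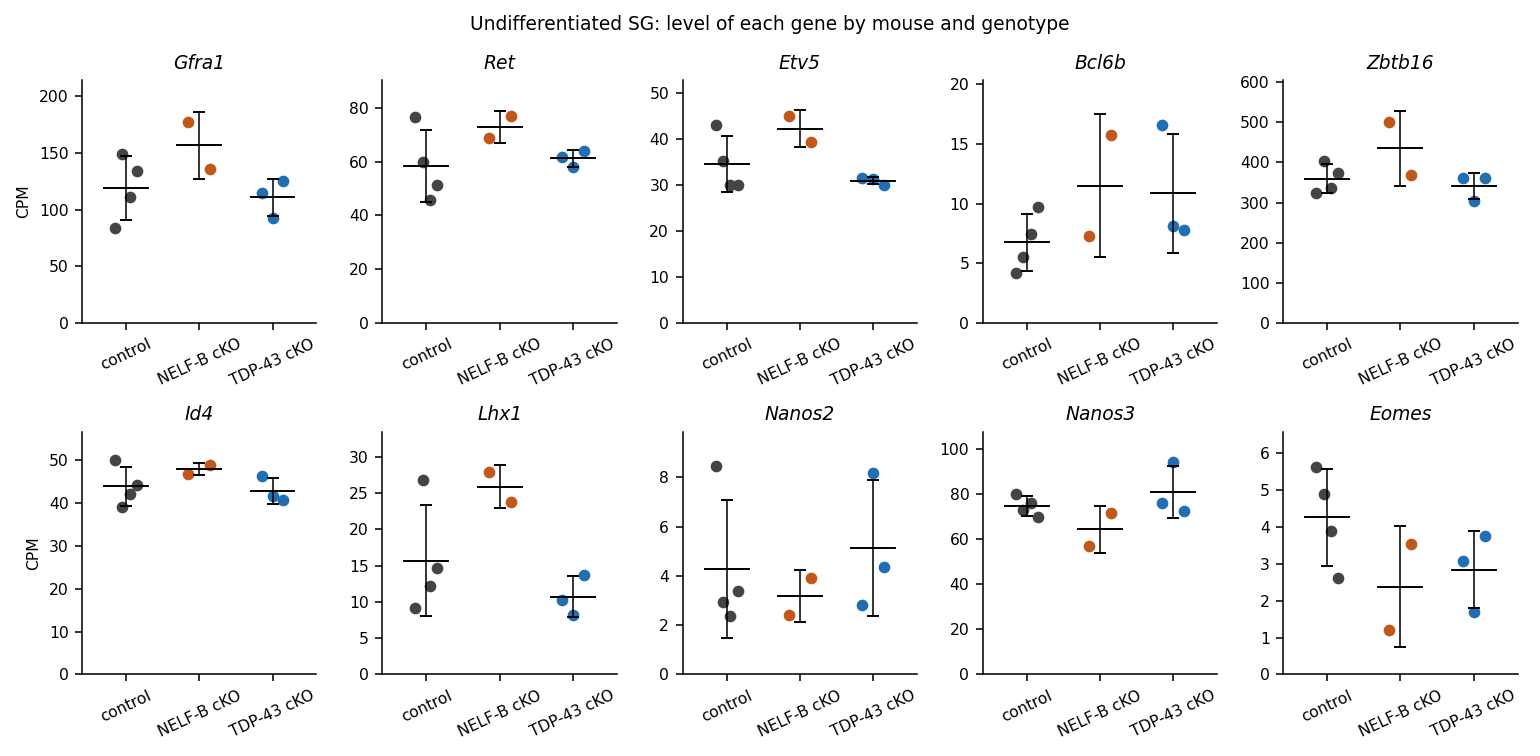
Level of the 10 genes in undifferentiated SG of each mouse, in CPM, for control (4 mice), NELF-B cKO (2) and TDP-43 cKO (3); points are mice, and the bars show the mean with its SD. Each cKO overlapped with control for all 10 genes (20.9% and 20.3% of all genes tested did not), while the 2 cKO did not overlap with each other for 7 (35.3% of all genes); both NELF-B cKO values of Lhx1, 28.0 and 23.8 CPM, lay above the 3 TDP-43 cKO values.

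The median difference of the 10 genes was 0.26 in NELF-B cKO and 0.00 in TDP-43 cKO on the log2 scale, against −0.02 over all genes in both. Between the cKO directly, 0 of 10 were called and 1.03% of all genes were. The 2 and 3 mice did not overlap for 7 of the 10, and for 35.3% of all genes tested: Gfra1, Ret, Zbtb16, Lhx1, Etv5 and Id4 were higher in each NELF-B cKO mouse, and Nanos3 in each TDP-43 cKO mouse. At an unadjusted p under 0.05 there were 2, Lhx1, lower in TDP-43 cKO, and Nanos3, higher by 0.37 (adjusted p = 0.249 by edgeR), and DESeq2 called 0, with 2 at its unadjusted p. The 2 comparisons with control share the control mice. Summed levels of the markers of 11 other cell types in undifferentiated SG were compared too. The 10 P/D SC markers were at 721 to 1322 CPM in control, 260 to 783 CPM in NELF-B cKO and 181 to 336 CPM in TDP-43 cKO mice. Both cKO lay below control for the 5 pL SC markers (169 to 204 CPM, against 112 to 141 and 80.3 to 132 CPM), and TDP-43 cKO for the 7 RS markers (29.4 to 142 against 19.2 to 21.9 CPM). The 6 endothelial markers, of the cell type in which Bcl6b was highest, were at 37.3 to 40.3 CPM in control, 31.7 to 36.5 CPM in NELF-B cKO and 47.0 to 51.3 CPM in TDP-43 cKO mice. NELF-B cKO lay above control for the 7 Leydig cell markers (17.0 to 27.5 against 43.8 to 74.6 CPM), the 7 macrophage markers (4.24 to 9.26 against 9.72 to 18.5 CPM) and the 5 interstitial cell markers (16.9 to 23.9 against 26.1 to 29.9 CPM). For the L/Z SC, Sertoli, myoid and lymphoid cell markers each cKO overlapped with control. The part of these transcripts in the values of the 10 genes was not tested.

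Over all SG, 0 of the 10 genes were called in either cKO against control, where 0.0113% and 0.00566% of 17659 genes were called by edgeR, nor was any at an unadjusted p under 0.05 or by DESeq2. For Ret and Nanos3 the 2 NELF-B cKO mice stood on either side of the control mice. Gfra1 was 22.4, 55.1, 43.1 and 46.6 CPM in control, 26.3 and 67.7 CPM in NELF-B cKO and 61.0, 34.8 and 47.6 CPM in TDP-43 cKO mice. Ret was 19.6, 21.9, 17.3 and 18.2 CPM, then 9.93 and 38.2 CPM, then 33.3, 21.8 and 24.4 CPM. Nanos3 was 22.1, 28.6, 30.6 and 26.4 CPM, then 10.5 and 36.9 CPM, then 44.6, 38.6 and 30.1 CPM. NELF-B cKO mouse 1 was lowest of all mice for Ret and Nanos3, and mouse 2 was highest for Ret. The NELF-B cKO differences were 0.31 (−0.65 to 1.28) for Ret and −0.20 (−1.12 to 0.73) for Nanos3, with intervals wider than in undifferentiated SG alone. Without NELF-B cKO mouse 2 the NELF-B cKO difference of Nanos3 was −1.40, which rests on NELF-B cKO mouse 1 alone.

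The share of SG that were undifferentiated ran along with these values. It was 17.8, 27.9, 27.1 and 22.7% in control mice, 8.77 and 33.0% in NELF-B cKO mice and 35.1, 23.1 and 26.3% in TDP-43 cKO mice. NELF-B cKO mouse 1 had the lowest share of the 9 mice and TDP-43 cKO mouse 1 the highest. The mean differed from control by −2.96 percentage points in NELF-B cKO (exact permutation test, two-sided, p = 0.8, smallest possible 0.133) and by 4.29 points in TDP-43 cKO (exact permutation test, p = 0.457, smallest possible 0.0571). Neither design can reach 0.05. With cells holding a UMI of the gene in question dropped from control mice as well, the NELF-B cKO difference turned to 1.91 points (exact permutation p = 0.8) and the TDP-43 cKO difference was 10.7 points (exact permutation p = 0.0571). At resolution 1.2 the TDP-43 cKO difference turned to −0.458 points, with 24.2, 18.7 and 19.4% against 17.1 to 24.4% in control mice. With no cell left out for a UMI of Tardbp, the TDP-43 cKO shares were 54.9, 33.7 and 38.3%, all above the control mice, a difference of 18.4 points (exact permutation p = 0.0571). Of the undifferentiated SG of TDP-43 cKO mice, 764 had been left out, and these were deeper cells, with a median of 34036.5 UMIs against 25695 in the 375 kept.

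The mixture of sub-clusters differed between mice. The Onecut2-led sub-cluster, high in Nanos3 and low in Gfra1, was 47.1 to 53.2% of undifferentiated SG in control mice, 54.1 and 14.6% in NELF-B cKO and 14.4 to 26.8% in TDP-43 cKO mice. The Sult6b2-led sub-cluster was 14.3 to 24.8%, then 12.9 and 45.0%, then 50.4 to 57.6%. The Lhx1-led sub-cluster, with the highest Gfra1, was 26.9 to 32.5% in control, 32.9 and 40.4% in NELF-B cKO and 22.8 to 30.6% in TDP-43 cKO mice. Its share differed from control by 6.91 points in NELF-B cKO (exact permutation p = 0.133, the smallest possible) and by −2.66 points in TDP-43 cKO (exact permutation p = 0.343). Genes that define the sub-clusters may themselves differ between genotypes, so the shares do not count stem cells.

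**Figure D3:**
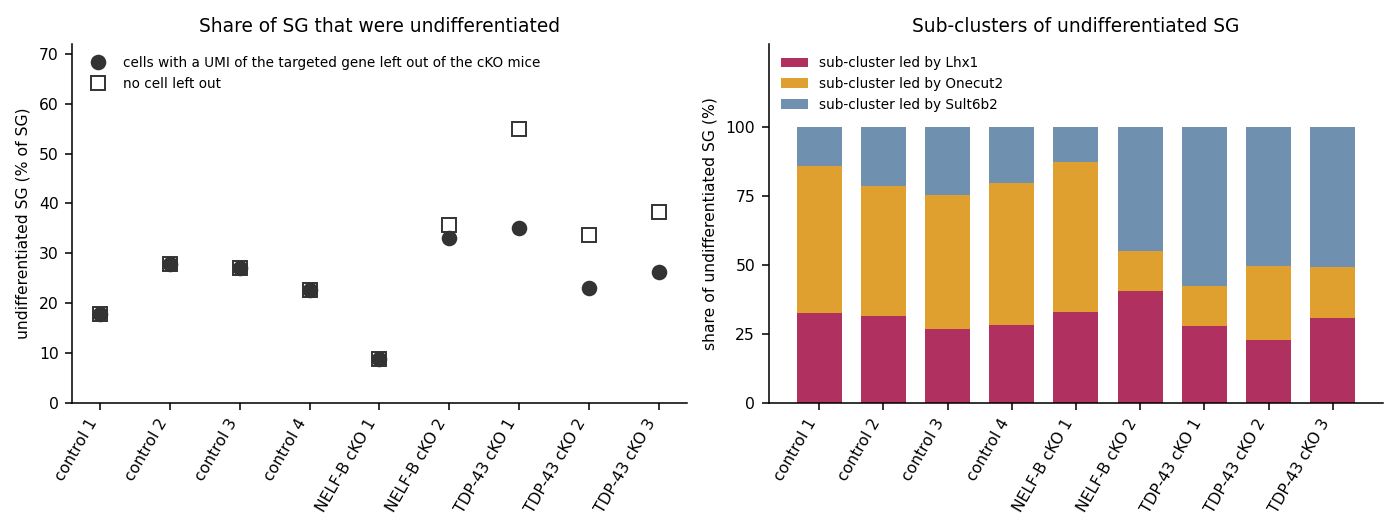
Left, share of SG that were undifferentiated in each mouse, in percent, with cells holding a UMI of the targeted gene left out (filled) or kept (open); right, share of undifferentiated SG in each of the 3 sub-clusters per mouse, in percent. The TDP-43 cKO shares of 35.1, 23.1 and 26.3% became 54.9, 33.7 and 38.3% with no cell left out.

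Of 18 genes of GDNF and FGF signalling, 17 were tested in SG and 0 were called in either cKO against control, with medians of 0.09 in NELF-B cKO and 0.08 in TDP-43 cKO on the log2 scale. The most abundant in control SG were the FGF receptor gene Fgfr2 (144 to 178 CPM), the signalling inhibitor gene Spred1 (35.9 to 48.1 CPM) and Nrtn (27.6 to 30.6 CPM), which encodes a ligand related to GDNF. Of 21 other stem and progenitor factors, 19 were tested and 0 called against control, with medians of −0.04 and 0.11; Epcam (189 to 249 CPM), Taf4b (131 to 143 CPM) and Foxo1 (111 to 133 CPM) led them. Of 12 genes of spermatogonial differentiation, among them Dmrt1 (240 to 309 CPM) and Crabp1 (171 to 196 CPM), all 12 were tested and 0 called, with medians of 0.09 and 0.16. The same count of 0 held for the 6 of 9 niche factors that were tested (medians 0.18 and 0.42), led by the KIT ligand gene Kitl at 4.98 to 8.46 CPM, and for 10 paralogues of the set (0.21 and 0.24), Nanos1 the most abundant of these at 27.7 to 32.1 CPM. The medians over all genes tested in SG were −0.03 and 0.00. In undifferentiated SG these lists also had 0 calls against control. Between the cKO, 0 of the 10 were called in SG (0 at an unadjusted p and 0 by DESeq2), while 113 of all genes tested in SG, 0.64%, were, among them Epcam, a surface adhesion protein gene, lower in TDP-43 cKO (−1.11, adjusted p = 0.0194 by edgeR). In undifferentiated SG, Utf1, a chromatin protein gene of early SG, was higher in TDP-43 cKO than in NELF-B cKO (1.60, adjusted p = 0.0323 by edgeR), as was Crabp1, a retinoic acid carrier gene (0.67, adjusted p = 0.0275). In that comparison 1.03% of all genes were called. Crabp1 was also among the fixed markers used to name SG and their sub-clusters.

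In SC, Id4 was the gene of the set that passed the test. In L/Z SC it fell in TDP-43 cKO mice by 2.57 on the log2 scale (SE 0.27, adjusted p = 2.27e-05 by edgeR). Of the 2 genes of the set with enough UMIs to be tested there, Id4 was called and Etv5 was not (0.68, −0.24 to 1.60). In that comparison 26.8% of all 12656 genes were called. Id4 was 106, 114, 81.6 and 107 CPM in control mice, 70.9 and 89.4 CPM in NELF-B cKO mice and 3.48, 16.6 and 21.5 CPM in TDP-43 cKO mice, from 2, 34 and 54 UMIs. The TDP-43 cKO mice lay below all others without overlap, and the NELF-B cKO mice overlapped with control. The share of all genes without overlap in L/Z SC is not given. TDP-43 cKO was also lower than NELF-B cKO (−2.15, adjusted p = 0.00188 by edgeR, with 5.01% of all genes called). For NELF-B cKO against control Id4 differed by −0.42 (−0.94 to 0.10), and 4.95% of all genes were called. With no cell left out, Id4 in L/Z SC was 13.2, 50.5 and 46.6 CPM in TDP-43 cKO mice and the difference was −1.41 (adjusted p = 0.00953), and that from NELF-B cKO was no longer called (−1.01, adjusted p = 0.207). The left-out cells of TDP-43 cKO mice, 677, had a median of 13814 UMIs against 9516 in the 457 kept.

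Stage markers moved with this result. The 10 P/D SC markers summed to 2743 to 3738 CPM in L/Z SC of control mice, 2044 to 2544 CPM in NELF-B cKO and 923 to 1452 CPM in TDP-43 cKO mice. The 7 SG markers summed to 84.1 to 93.2, 125 to 148 and 264 to 340 CPM, and the 10 L/Z SC markers to 7652 to 8415, 7337 to 7755 and 8779 to 9250 CPM. For the 5 pL SC markers the sums were 286 to 447, 262 to 297 and 453 to 561 CPM. Id4 in control mice was 18.5 CPM on average in pL SC, 102 CPM in L/Z SC and 125 CPM in P/D SC. Free RNA held 81.7 to 88.1 CPM of Id4 in control, 42.4 to 76.1 CPM in NELF-B cKO and 23.9 to 55.5 CPM in TDP-43 cKO mice. The part of stage and of free RNA in the Id4 difference was not tested.

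In P/D SC, Id4 also fell in TDP-43 cKO mice (−1.24, adjusted p = 0.0103 by edgeR, with 16.7% of all genes called and a median over all genes of −0.25), and against NELF-B cKO (−1.38, 11.7% of all genes called), but these calls rested on few cells. It was 131, 118, 124 and 126 CPM in control, 107 and 184 CPM in NELF-B cKO, and 68.6 and 62.3 CPM in TDP-43 cKO mice 2 and 3, from 17 and 25 cells. TDP-43 cKO mouse 1, with 1 cell, was not fitted, and without mouse 2 or mouse 3 the call against control was lost (−1.34 and −1.19, adjusted p = 0.067 and 0.0956 by edgeR), in fits where the lone TDP-43 cKO mouse was assumed to vary like the other groups. With no cell left out the 3 TDP-43 cKO mice had 116 to 127 CPM and the difference was −0.06, fitted over mice 2 and 3 since mouse 1 still had 6 cells, and with cells holding Tardbp left out of the control mice too it was 0.36, in the other direction. The 43 kept cells had a median of 6547 UMIs, against 73951 in the 263 left out and 50885.5 in control cells. Of the kept cells, 83.7% came from 1 of the 3 P/D SC clusters, which held 30.7% of the control cells. Stage markers in P/D SC moved with the group too: in the 2 fitted TDP-43 cKO mice the RS markers summed to 272 to 274 CPM against 42.8 to 127 CPM in control, the pL SC markers to 824 to 968 against 619 to 760 CPM, and the L/Z SC markers to 1363 to 1370 against 1941 to 2217 CPM. The P/D SC markers themselves summed to 10047 to 10430 against 10934 to 11774 CPM, while the SG markers overlapped. The part of stage and depth in this difference was not tested.

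In the earlier cells Id4 did not pass the test. In pL SC it was 23.0, 15.0, 20.5 and 15.5 CPM in control, 13.7 and 5.47 CPM in NELF-B cKO and 2.14, 6.77 and 5.17 CPM in TDP-43 cKO mice (−1.90, adjusted p = 0.0582 by edgeR, 0.0501% of all genes called; DESeq2 adjusted p = 0.00847). In the other SG it was 11.8 to 28.3, 15.6 and 6.54, and 4.27 to 8.53 CPM (−1.69, adjusted p = 0.0815 by edgeR, 0.00633% of all genes called), and DESeq2 called it. The other SG, and with them SG as a whole, lay in different sub-clusters in different mice. Before any cell was dropped, SG sub-clusters 1, 2 and 7 (numbered by size from 0) held 15 to 152 cells each in a control mouse and 115 to 432 in NELF-B cKO mouse 1, but 0 to 18 in NELF-B cKO mouse 2 and the TDP-43 cKO mice. Sub-clusters 0, 4 and 8 held 0 to 17 cells in a control mouse, 1 to 2 in NELF-B cKO mouse 1, 44 to 138 in NELF-B cKO mouse 2 and 70 to 402 in TDP-43 cKO mice. Id4 in the other SG ran along with this split, and its part was not tested. In both pL SC and the other SG, the TDP-43 cKO mice lay below the control mice without overlap, and in pL SC so did both NELF-B cKO mice. The share of all genes without overlap is not given for these 2 cell types. The contrast with undifferentiated SG, where the Id4 levels of each cKO overlapped with control, was not itself tested. With SG, pL and L/Z SC summed together, as the study summed early meiotic cells with SG, Id4 was called lower in TDP-43 cKO (−1.55, adjusted p = 0.00621 by edgeR). The share of all genes called in that sum is not given. The sum held 35, 209 and 213 L/Z SC in TDP-43 cKO mice, against 197 to 584 in control mice. Beside them stood 336 to 533 SG in TDP-43 cKO and 366 to 536 SG in control mice. The part of this makeup in the call was not tested.

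**Figure D4:**
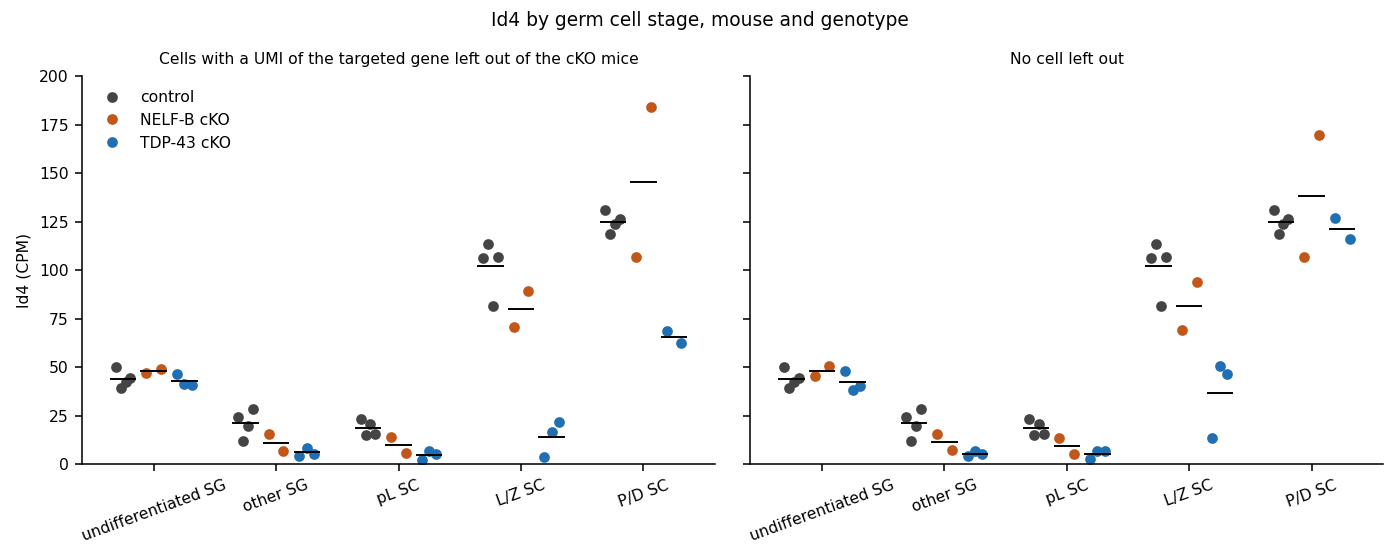
Id4 level in CPM per mouse along the germ cell types with at least 10 cells in a mouse, for the 3 genotypes; the left panel leaves out cKO germ cells holding a UMI of the targeted gene and the right panel keeps them. In L/Z SC the TDP-43 cKO mice were at 3.48 to 21.5 CPM on the left and 13.2 to 50.5 CPM on the right, against 81.6 to 114 CPM in control mice; in P/D SC they were near the control mice on the right only.

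Bcl6b and Nanos3 did not pass the edgeR test in other germ cells, though 1 cKO did not overlap with control for each. The share of all genes without overlap is not given for these cell types. In undifferentiated SG it was 20.9% in NELF-B cKO and 20.3% in TDP-43 cKO. Bcl6b in P/D SC was 1.31, 1.72, 1.07 and 1.41 CPM in control and 5.08 and 4.26 CPM in NELF-B cKO mice, without overlap. Bcl6b in free RNA was 0.552 to 2.87 CPM in control and 4.44 and 1.11 CPM in the same NELF-B cKO mice, from 2 to 16 UMIs, and its part was not tested. The difference of 1.73 did not pass the edgeR test (adjusted p = 0.143, with 0.033% of all genes called) and passed in DESeq2 (1.77, adjusted p = 0.00828). Zbtb16 differed there by 1.42 (adjusted p = 0.439 by edgeR). Nanos3 in the other SG was 2.38, 3.00, 3.07 and 3.91 CPM in control, 2.96 and 2.89 CPM in NELF-B cKO and 9.40, 6.15 and 4.36 CPM in TDP-43 cKO mice, from 10 to 33 UMIs each (1.197, adjusted p = 0.0977 by edgeR). All 3 TDP-43 cKO mice lay above the control mice. Nanos3 in free RNA moved with them, at 2.01 to 4.80 CPM in control, 3.89 to 4.42 CPM in NELF-B cKO and 11.5 to 19.0 CPM in TDP-43 cKO mice, so that the other SG of TDP-43 cKO mice lay below it. The part of free RNA and of the split by sub-cluster in the Nanos3 values was not tested. In NELF-B cKO mice 0 of 5 genes tested in the other SG, 0 of 6 in the Stra8-led cluster and 0 of 2 in pL SC were called, also at an unadjusted p and by DESeq2, where 0.057%, 0.00694% and 1.96% of all genes were called.

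In Sertoli cells, the somatic cells that nurse the germ line, 2 of the 5 genes tested passed in TDP-43 cKO and 0 in NELF-B cKO, where 8.2% and 0% of 15361 genes were called. Zbtb16 rose by 1.52 (SE 0.33, adjusted p = 0.0455 by edgeR): it was 4.09, 6.18, 3.06 and 7.97 CPM in control, 15.6 and 10.4 CPM in NELF-B cKO and 12.8, 14.5 and 20.2 CPM in TDP-43 cKO mice. Id4 fell by 0.56 (SE 0.13, adjusted p = 0.0458): it was 68.8, 68.3, 63.3 and 75.7 CPM in control, 46.4 and 34.8 CPM in NELF-B cKO and 43.6, 51.4 and 44.4 CPM in TDP-43 cKO mice. For both genes each cKO mouse lay outside the control range. The share of all genes for which this held in Sertoli cells is not given. In NELF-B cKO the differences were 1.23 for Zbtb16 (adjusted p = 0.324) and −0.76 for Id4 (adjusted p = 0.283), both with an unadjusted p under 0.05, and DESeq2 called Id4. Each TDP-43 cKO call was lost without any 1 of the control or TDP-43 cKO mice (differences of 1.35 to 1.78 with adjusted p = 0.0722 to 0.135 for Zbtb16, and of −0.63 to −0.49 with adjusted p = 0.0747 to 0.14 by edgeR for Id4).

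Free RNA moved in the same direction as both genes. Zbtb16 in free RNA was 5.01 to 13.8 CPM in control, 10.5 to 34.6 CPM in NELF-B cKO and 58.3 to 77.1 CPM in TDP-43 cKO mice, in the last above its level in Sertoli cells. Id4 in free RNA was 81.7 to 88.1 CPM in control and 23.9 to 55.5 CPM in TDP-43 cKO mice, as given above. The median UMI count of a Sertoli cell was 2564 in control, 2964.5 in NELF-B cKO and 17967.5 in TDP-43 cKO mice, and 1 of the 3 Sertoli cell clusters held 61.7% of the control cells, while another held 58.6% of the TDP-43 cKO cells. The part of free RNA and depth in these calls was not tested. The GDNF ligand gene Gdnf was 2.46, 7.37, 5.62 and 5.98 CPM in Sertoli cells of control, 4.09 and 12.7 CPM in NELF-B cKO and 16.5, 12.0 and 10.5 CPM in TDP-43 cKO mice. All 3 TDP-43 cKO mice lay above the control mice, the difference of 1.23 did not pass the test (adjusted p = 0.0811 by edgeR), and it passed when TDP-43 cKO and control mice were fitted alone (adjusted p = 0.0281). The share of all genes called in that fit of 2 groups is not given. Gdnf in free RNA was 0 to 1.04 CPM in control, 0.278 to 1.47 CPM in NELF-B cKO and 2.71 to 3.87 CPM in TDP-43 cKO mice, below its level in Sertoli cells. The part of free RNA, depth and Sertoli cell cluster in the Gdnf values was not tested. Of the lists, 3 further genes passed in Sertoli cells of TDP-43 cKO mice, where 8.2% of all genes were called. They were singled out after their values were seen. Their adjusted p-values lay as near the threshold as those of Zbtb16 and Id4. Fits without 1 mouse and free RNA levels are not given for them. Of 14 genes of GDNF and FGF signalling tested, the FGF receptor gene Fgfr1 was higher (1.64 to 5.11 CPM in control and 12.7 to 20.4 CPM in TDP-43 cKO mice, adjusted p = 0.0449 by edgeR) and the GDNF-family ligand gene Artn was lower (1.25 to 9.01 CPM, against 1 UMI in each TDP-43 cKO mouse, adjusted p = 0.0496). Artn had enough UMIs to be tested only through the other groups, so a lower value in TDP-43 cKO was favoured in advance. Of 8 paralogues tested, Id2, which like Id4 encodes an inhibitor of basic helix-loop-helix factors, was higher by 0.99 (44.2 to 108 against 137 to 169 CPM, adjusted p = 0.0496 by edgeR). Of the other 3 lists 0 genes were called.

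**Figure D5:**
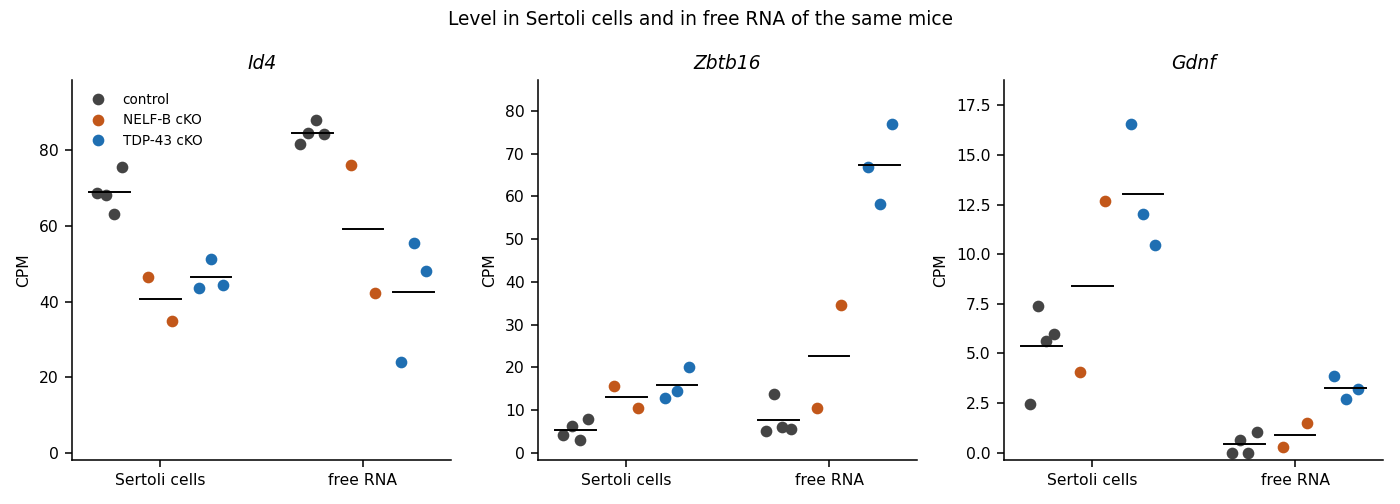
Id4, Zbtb16 and Gdnf in CPM in Sertoli cells and in free RNA (barcodes of at most 100 UMIs) of each mouse, by genotype; points are mice and bars means. Zbtb16 was at 58.3 to 77.1 CPM in free RNA of TDP-43 cKO mice and at 12.8 to 20.2 CPM in their Sertoli cells, whereas Gdnf was higher in Sertoli cells.

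In the other somatic cells, 0 of the genes of the set were called by edgeR in either cKO, where 0% of genes were called in Leydig cells, macrophages and interstitial cells, and 0% and 0.176% in endothelial cells. At an unadjusted p under 0.05 there were Id4 in Leydig cells of TDP-43 cKO mice (−1.12) and, in interstitial cells, Etv5 (0.99 in NELF-B cKO and 0.75 in TDP-43 cKO) and Id4 (−0.67 and −1.01). Of these, DESeq2 called Id4 in interstitial cells of TDP-43 cKO mice. Id4 thus had a negative fitted difference in these types as in Sertoli cells, in the same direction as in free RNA. RS, myoid cells and lymphoid cells were not fitted, since in each of them at least 1 of the 3 groups had fewer than 2 mice with 10 cells. The NELF-B cKO mice had 238 and 6 RS and 9 and 25 myoid cells, and the control mice had at most 7 lymphoid cells each.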

How the data were processed

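UMIs of single cell 3′ libraries were analysed from 9 mice. The deposited matrices are raw UMI counts for every barcode, made by the authors with Cell Ranger (7.0.0; the submitters' processing notes also list 6.1.1) on the mm10 reference 2020-A, with no choice of cells. Barcodes passed with more than 1000 genes and less than 10% of UMIs from mitochondria, and were clustered without batch integration (scanpy 1.11.5, 3000 variable genes, 40 components, resolution 0.8). Clusters needed 3 fixed markers at 2-fold; a median under 2000 UMIs, or over 80% from 1 mouse, left a cluster unnamed, limits set after the clusters were seen. No doublet caller was run. A pair of libraries shared at most 24 barcodes, and at most 0.355% of the smaller library's cells. Counts summed per mouse and cell type (at least 10 cells) were fitted with edgeR 4.0.16 (quasi-likelihood, 1 fit over all groups, Benjamini-Hochberg adjustment), with DESeq2 1.42.0 as an alternative; intervals are 95%. Shares were compared by two-sided exact permutation tests. In simulated counts for SG (17659 genes), changes of 1 on the log2 scale were found for 41% of genes in the NELF-B cKO comparison and 52% in the TDP-43 cKO comparison, and changes of 2 for 82% and 88%. Changes were placed only in genes above a floor of expected UMIs, so these percentages do not cover scarce genes such as Nanos2 and Eomes. Counts were drawn around 1 mean per gene with the spread of the fitted trend. A gene that varies more than the trend between mice would be found less often. The genes, gene lists and marker lists were chosen with earlier results of these data known. Named besides the 10 genes were Gdnf, the most abundant genes of each list in control SG, those called in SG or undifferentiated SG, the 5 most alike in pattern and, outside this rule, 3 list genes called in Sertoli cells. Totals were 119203347 to 159407373 UMIs per library, of which 37.5 to 78.3% lay in cells. Upper limits for a count of 0 use 3 counts and cover counting error only. No promoter was matched for Ret, Bcl6b and Zbtb16.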

Additional observations from a re-analysis of the deposited data

Results flagged for a closer look

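Among 48 groups of control values tested for 1 mouse far from the other 3 (Dixon's test), 8 passed, where chance alone gives about 1 in 20. In 4 of the 8 the other 3 mice were at 0, which passes for any value above 0, so that this rate does not hold for them. Nanos2 in undifferentiated SG was 8.45 CPM in control mouse 1 against 2.39 to 3.37 CPM in the others. Eomes in SG was 0.899 CPM in control mouse 4, below 1.69 to 1.79 CPM in the others. Zbtb16 in P/D SC was 1.75 CPM in control mouse 3, above 1.00 to 1.09 CPM. The other 5 rested on 1 to 9 UMIs: Eomes in L/Z SC of control mouse 2 (0.166 CPM), Ret in Sertoli cells of control mouse 4 (2.24 CPM), Lhx1 in Sertoli cells of control mouse 3 (1.02 CPM), and Nanos2 (1.64 CPM) and Eomes (0.819 CPM) in Sertoli cells of control mouse 1.

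Of 59 comparisons of the 2 cKO with each other over genes and cell types, Id4 differed in L/Z SC (−2.15 on the log2 scale, TDP-43 cKO against NELF-B cKO) and in P/D SC (−1.38), where the TDP-43 cKO values rest on 17 and 25 cells.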

How the results depend on the processing

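Under each alternative run, 0 genes of the set were called in undifferentiated SG in either cKO against control, and Id4 was called lower in L/Z SC of TDP-43 cKO mice than of controls, from −2.93 to −1.41 on the log2 scale. The counts of calls over the cell types other than SG moved. For NELF-B cKO the count of 0 became 2 with DESeq2. For TDP-43 cKO the count of 4 became 1 with an adjusted p under 0.01 and a log2 change of 1, 2 with the replicate block, and 6 with DESeq2 or with TDP-43 cKO and control mice alone. The percentage of all genes called is not given for these alternatives, so these counts cannot be read as particular to the set. With SG, pL and L/Z SC summed together, Id4 was called lower in TDP-43 cKO. The share of all genes called in that sum is not given, and its makeup of cell types differed between the groups. The difference of TDP-43 cKO in the undifferentiated share was 18.4 points with no cell left out and 10.7 points with such cells left out of controls too, and the NELF-B cKO difference then turned to 1.91 points. At resolution 1.2 that of TDP-43 cKO was −0.458 points. Id4 in P/D SC turned to 0.36 with cells left out of controls too, and the cause was not tested. Leaving out 1 mouse gave 0 calls in SG for TDP-43 cKO against control, and 0 in undifferentiated SG for either cKO against control. In the other types the TDP-43 cKO count fell to 1 without TDP-43 cKO mouse 2 or 3. It fell to 2 without TDP-43 cKO mouse 1 or any 1 control mouse. In fits without 1 of the NELF-B cKO mice more genes of the set were called, in SG and in the other types. Those fits rest on 1 NELF-B cKO mouse, so their counts are left out. The percentage of all genes called is not given for any fit without 1 mouse. Such counts therefore cannot be read as particular to the set. The undifferentiated share of SG differed from control by −15.1 to 9.17 points in NELF-B cKO and 0.805 to 6.83 points in TDP-43 cKO. A lone cKO mouse was assumed to vary like the other groups. Whether mice that share a number belong together was not settled, so the block stands here only. Correlations of their deviations were −0.403 to 0.373 over 7 pairs, against −0.373 to 0.403 over 19 other pairs. The 2 NELF-B cKO mice deviate from their mean by equal and opposite amounts. That makes these ranges mirror images, so they cannot decide it. Under the block, Zbtb16 and Id4 in Sertoli cells were no longer called. Sums with the Stra8-led cluster, the Lhx1-led sub-cluster alone and the share with that cluster were chosen after seeing the data and changed no call. Genes with few UMIs, Nanos2 and Eomes first, are limited by depth.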
